A study of Mus musculus with 15 samples.

Results

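The NF-kB subunits and the genes that restrain or feed them were followed in 15 messenger RNA libraries of a breast cancer line carrying short hairpin RNAs. The members are 10 symbols taken by name from both deposited count tables: the 5 subunit genes NFKB1, NFKB2, REL, RELA and RELB, the inhibitors NFKBIA, NFKBIB, NFKBIE and TNFAIP3, and the kinase-like adaptor IRAK2. All 10 were found among 56967 gene names, and all 10 had enough counts to be tested among 19051 genes. The labels name the line as MDA-MB-468, which is known as a basal-like breast carcinoma line, and no harvest time or further agent is given for the sequenced cells. They had received a control hairpin (NC), shSHCBP1_1, shSHCBP1_2, shTMEM45A_1 or shTMEM45A_2, with 3 libraries in each of the 5 groups. The columns of the shTMEM45A table are numbered 2 and 4. Those numbered 2 were taken as shTMEM45A_2 and those numbered 4, by elimination, as shTMEM45A_1, and they are called set 2 and set 4 here. Separate cultures within a group are not stated. The p-values therefore reflect the spread among libraries within groups, pooled over all 15 libraries in 1 fit, and that spread may be purely technical. It was wider within the shTMEM45A sets, where 2 libraries of a group differed by a chi-square of 3.65 to 9.15 per degree of freedom. Within the other groups this was 1.74 to 2.99.

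NF-kB is a family of transcription factors that bind DNA as pairs of subunits. RELA, REL and RELB carry their own transactivating part, whereas NFKB1 and NFKB2 encode precursors that are cut to smaller DNA-binding partners. In resting cells the IkB proteins, among them the products of NFKBIA, NFKBIB and NFKBIE, hold the pairs in the cytoplasm until the IkB kinase marks them for destruction. NFKBIA and TNFAIP3 are themselves well-known target genes of the pathway and close its negative feedback, and basal-like breast lines are known for activity of this pathway. IRAK2 passes signals from interleukin-1 and Toll-like receptors on towards the IkB kinase, so it acts upstream and is not an inhibitor.

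Library totals ran from 13748138 to 16460265 counts, and levels are given as CPM, counts scaled to the TMM-adjusted library size. Of 23 epithelial and basal markers listed for this line, 11 exceeded 1 CPM in NC. KRT8 stood at 79.3 CPM and EGFR at 16.3 CPM, while KRT5, KRT6A, KRT6B, KRT16 and TP63 had no count in any of the 15 libraries. The neurofilament gene NEFM, not a breast epithelial marker, stood at 254.5 CPM in NC. The SHCBP1 transcript was not detectably lower in either of its sets (edgeR adjusted p = 0.412 and 0.962), at 44.1 ± 2.53 CPM in NC (SD, n = 3), 47.1 ± 1.24 in shSHCBP1_1 and 44.3 ± 1.12 in shSHCBP1_2. Because of this, the text speaks of libraries labelled shSHCBP1. With scaling to total counts only, SHCBP1 passed as higher in shSHCBP1_1 (log2 0.24, edgeR adjusted p = 0.0202). TMEM45A averaged 26.6 ± 2.09 CPM in NC and was lower in both of its sets. It stood at 17.8 ± 1.86 CPM in set 4 and 19.4 ± 0.761 CPM in set 2 (edgeR adjusted p = 8.8e-06 and 0.000181). Of all tested genes 38.9% and 39.8% passed as lower in the same sets. NC and both shSHCBP1 groups lie in 1 table and the shTMEM45A groups alone in the other, and wherever shTMEM45A is set against them the target cannot be told apart from the table.

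In the libraries labelled shSHCBP1, mean of both sets against NC, 6 of the 10 genes were higher, 1 was lower and 3 did not pass (edgeR quasi-likelihood test, Benjamini-Hochberg adjusted p under 0.05). The subunits RELB and NFKB1 rose 2.04-fold and 1.75-fold, TNFAIP3 rose 1.56-fold, NFKBIE 1.53-fold, RELA 1.2-fold and NFKBIB 1.18-fold, whereas REL fell to a level 1.61-fold below NC. Over all tested genes 31.1% passed in this comparison, 15.2% higher and 15.9% lower. The higher share of all calls was 48.8%, against 32.8% under RLE and 83.0% under total-count scaling, where the median log2 change of all genes was -0.06 and 0.16. A change over 2-fold passed in 1 of the 10 genes, RELB, and in 3.12% of all genes, and the libraries of NC and shSHCBP1 did not overlap in 6 of the 10 and in 33.6% of all genes. The median log2 change was 0.25 over the 10 genes and 0.01 over all genes. In bulk RNA, fewer cells expressing a gene and less RNA per cell cannot be told apart.

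With the shTMEM45A libraries, mean of both sets against NC, 7 of the 10 genes were higher, 2 were lower and NFKB2 did not pass. NFKBIA rose 4.34-fold, NFKBIE 3.96-fold, RELB 3.54-fold and NFKBIB 2.06-fold, while REL fell to a level 8.32-fold below NC and IRAK2 to one 1.76-fold below. In this comparison 78.6% of all tested genes passed, 37.3% higher and 41.3% lower, so the number of members that passed is near the background. A change over 2-fold that passed was seen in 5 of the 10 genes and in 40.7% of all genes. Libraries of NC and shTMEM45A did not overlap in 9 of the 10 genes and in 67.8% of all genes. The median log2 change was 0.58 over the 10 genes and -0.05 over all genes.

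**Figure D1:**
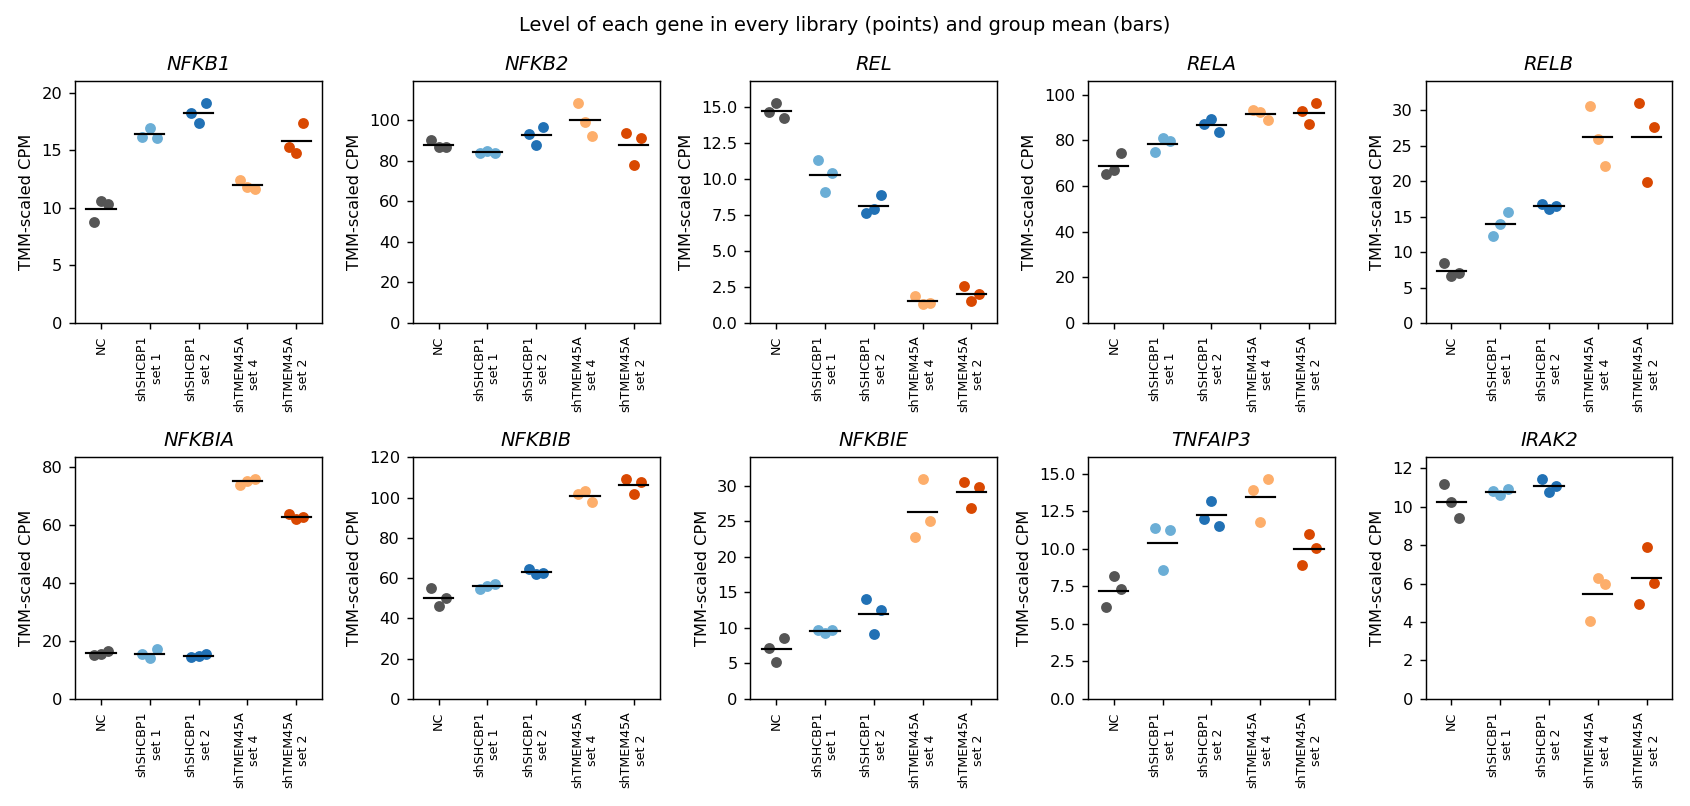
Level of each of the 10 genes in TMM-scaled CPM (vertical axes, from 0) in the 15 libraries, by group; points are libraries and bars are group means. NFKBIA stands between 62.0 and 75.9 CPM in the shTMEM45A libraries and between 14.1 and 17.3 CPM in the other libraries, and REL stands lowest in the shTMEM45A libraries.

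**Figure D2:**
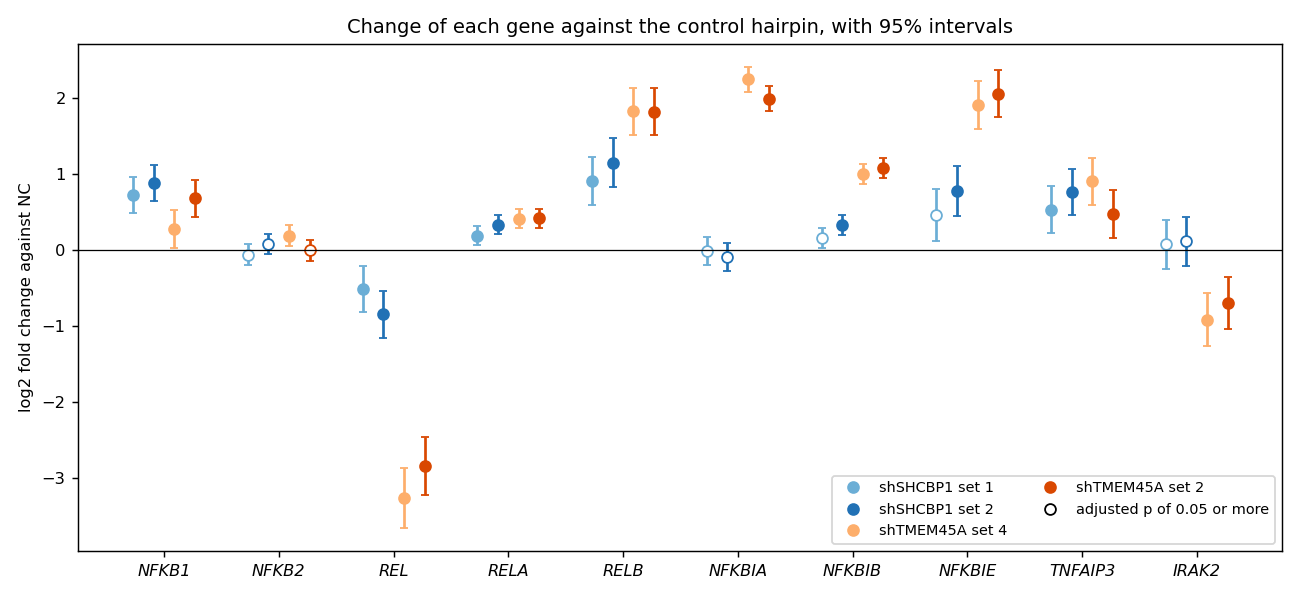
The log2 fold change of each gene against NC (vertical axis) in each hairpin set, with 95% intervals from the edgeR fit; open circles had an adjusted p of 0.05 or more. The 2 sets of a target lie close together for most genes, and all sets share the same 3 NC libraries.

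Among the subunits, NFKB1 encodes the precursor of the partner most often paired with RELA. It was measured at 8.74, 10.6 and 10.3 CPM in the 3 NC libraries, at 16.2, 16.9 and 16.1 CPM in shSHCBP1_1 and at 18.3, 17.4 and 19.1 CPM in shSHCBP1_2. In the shTMEM45A libraries it was 12.4, 11.8 and 11.7 CPM in set 4 and 15.3, 14.8 and 17.4 CPM in set 2. Every hairpin library thus lay above every NC library, and the order of group means was NC, set 4, set 2, shSHCBP1_1 and shSHCBP1_2. Set 2 and shSHCBP1_1 overlapped, while the other neighbours in that order did not. Against NC the log2 change was 0.81 (SE 0.10, edgeR adjusted p = 3.9e-07) for the mean of the libraries labelled shSHCBP1 and 0.48 (SE 0.10, adjusted p = 0.000149) for the mean of the shTMEM45A sets. The rise in set 4 alone was small (log2 0.27, edgeR adjusted p = 0.0416) and no longer passed without NC replicate 1 (0.19, adjusted p = 0.208) or, at a similar size of 0.24 to 0.29, without any 1 of its own 3 libraries (adjusted p from 0.055 to 0.108). It also did not pass under RLE (0.25), total-count scaling (0.08) or DESeq2 (0.24), without a filter on low counts (0.26) or with only the groups compared (0.29).

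RELA, the main transactivating subunit of the classical pathway, was measured at 65.3, 67.2 and 74.3 CPM in NC. It was 74.8, 81.2 and 79.6 CPM in shSHCBP1_1, 87.1, 89.1 and 83.7 CPM in shSHCBP1_2, 93.2, 92.5 and 89.1 CPM in set 4 and 92.6, 87.0 and 96.3 CPM in set 2. No hairpin library fell into the range of NC, although the lowest library of shSHCBP1_1 stood just above it. The changes were among the smallest that passed, with a log2 change of 0.26 (SE 0.05, edgeR adjusted p = 0.000425) for shSHCBP1 and 0.41 (SE 0.05, adjusted p = 5.45e-08) for shTMEM45A. Set 4, set 2 and shSHCBP1_2 followed each other closely, and neighbouring groups in that part of the order overlapped.

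REL, a subunit best known from lymphocytes, went the other way from RELA, NFKB1 and RELB in every hairpin set. NC had 14.6, 15.3 and 14.2 CPM, shSHCBP1_1 had 11.3, 9.07 and 10.4 CPM and shSHCBP1_2 had 7.66, 7.92 and 8.88 CPM. In set 4 it was 1.85, 1.32 and 1.37 CPM and in set 2 it was 2.54, 1.55 and 2.03 CPM, from 18 to 35 reads a library. Levels did not overlap between NC, shSHCBP1_1, shSHCBP1_2 and the shTMEM45A libraries, and the group means of NC and set 4 differed 9.71-fold, the widest span of the 10 genes. The log2 change was -0.68 (SE 0.13, edgeR adjusted p = 9.74e-05) for shSHCBP1 and -3.06 (SE 0.15, adjusted p = 9.12e-18) for shTMEM45A.

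RELB and NFKB2 encode the pair of the non-canonical pathway, which runs through processing of the NFKB2 precursor. RELB was measured at 8.47, 6.65 and 7.12 CPM in NC, at 12.2, 14.0 and 15.7 CPM in shSHCBP1_1, at 16.7, 16.2 and 16.5 CPM in shSHCBP1_2, at 30.6, 25.9 and 22.2 CPM in set 4 and at 31.0, 19.9 and 27.7 CPM in set 2. The groups formed a ladder in which NC, shSHCBP1_1, shSHCBP1_2 and the shTMEM45A libraries did not overlap, while the 2 shTMEM45A sets did. Its log2 change was 1.03 (SE 0.14, edgeR adjusted p = 1.11e-06) for shSHCBP1 and 1.82 (SE 0.14, adjusted p = 2.97e-13) for shTMEM45A.

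NFKB2, in contrast, kept to a narrow band. NC had 90.2, 86.8 and 86.5 CPM, shSHCBP1_1 had 83.5, 84.7 and 83.8 CPM, shSHCBP1_2 had 93.2, 87.8 and 96.7 CPM, set 4 had 108.3, 99.1 and 92.0 CPM and set 2 had 93.6, 77.8 and 91.3 CPM. Each group overlapped its neighbours in the order of means, and the highest and lowest means differed 1.19-fold. The log2 change was 0.01 (95% interval -0.11 to 0.12, edgeR adjusted p = 0.952) for shSHCBP1 and 0.09 (95% interval -0.03 to 0.21, adjusted p = 0.154) for shTMEM45A. Set 4 alone passed with 0.19 (edgeR adjusted p = 0.014), but not without its column 1 (0.12, adjusted p = 0.139) or NC replicate 2 (0.17, adjusted p = 0.05), and the sign turned to -0.01 under total-count scaling. In separate runs the mean of both shTMEM45A sets passed without set 2 replicate 2 (0.13, edgeR adjusted p = 0.0224), under upper-quartile scaling (0.16) and with the length trend removed (0.31). It stood at -0.10 under total-count scaling. The mean of both shSHCBP1 sets passed under total-count scaling (0.16, edgeR adjusted p = 0.0264) and stood at -0.07 under RLE.

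Among the inhibitors, NFKBIA encodes the IkB protein that is resynthesised fastest after a stimulus. It was measured at 15.3, 15.5 and 16.6 CPM in NC, at 15.4, 14.1 and 17.3 CPM in shSHCBP1_1 and at 14.4, 14.8 and 15.3 CPM in shSHCBP1_2. In set 4 it was 73.8, 75.2 and 75.9 CPM and in set 2 it was 63.7, 62.0 and 62.6 CPM. The libraries of NC and of both groups labelled shSHCBP1 overlapped, and all 6 shTMEM45A libraries lay far above them. For shSHCBP1 the log2 change was -0.05 (95% interval -0.21 to 0.10, edgeR adjusted p = 0.645), and 0.10 under total-count scaling. For shTMEM45A it was 2.12 (SE 0.07, edgeR adjusted p = 1.05e-21).

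NFKBIB encodes a second IkB protein, whose gene is not a classical target of the pathway. NC had 54.9, 45.9 and 50.1 CPM, shSHCBP1_1 had 54.5, 56.1 and 57.0 CPM and shSHCBP1_2 had 64.6, 62.2 and 62.4 CPM. Set 4 had 101.6, 103.2 and 97.7 CPM and set 2 had 109.4, 101.8 and 107.8 CPM. Only NC and shSHCBP1_1, and the 2 shTMEM45A sets, overlapped as neighbours. The log2 change was 0.24 (SE 0.06, edgeR adjusted p = 0.00166) for shSHCBP1 and 1.04 (SE 0.06, adjusted p = 1.26e-16) for shTMEM45A.

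NFKBIE, the third IkB gene, was measured at 7.15, 5.18 and 8.57 CPM in NC, at 9.65, 9.26 and 9.75 CPM in shSHCBP1_1, at 14.1, 9.18 and 12.5 CPM in shSHCBP1_2, at 22.8, 31.0 and 25 CPM in set 4 and at 30.5, 26.9 and 29.8 CPM in set 2. All hairpin libraries lay above those of NC, and all shTMEM45A libraries above all others. The log2 change was 0.61 (SE 0.15, edgeR adjusted p = 0.00163) for shSHCBP1 and 1.99 (SE 0.14, adjusted p = 7e-14) for shTMEM45A. All 3 IkB genes thus rose with shTMEM45A, and with shSHCBP1 NFKBIB and NFKBIE did while NFKBIA did not pass.

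TNFAIP3 encodes a ubiquitin-editing enzyme that ends signalling from TNF and Toll-like receptors. It was measured at 6.11, 8.19 and 7.33 CPM in NC, at 11.4, 8.55 and 11.3 CPM in shSHCBP1_1, at 12, 13.2 and 11.5 CPM in shSHCBP1_2, at 13.9, 11.8 and 14.7 CPM in set 4 and at 8.94, 11 and 10 CPM in set 2. Every hairpin library lay above NC, and the order of means was NC, set 2, shSHCBP1_1, shSHCBP1_2 and set 4. Set 2 and shSHCBP1_1 overlapped, as did shSHCBP1_2 and set 4. The log2 change was 0.65 (SE 0.13, edgeR adjusted p = 0.000336) for shSHCBP1 and 0.69 (SE 0.13, adjusted p = 3.16e-05) for shTMEM45A. In set 2 alone it was 0.47 (edgeR adjusted p = 0.00689), and 0.35 (adjusted p = 0.0615) without NC replicate 1 or 0.28 (adjusted p = 0.102) under total-count scaling.

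IRAK2 was measured at 11.2, 10.2 and 9.40 CPM in NC, at 10.8, 10.6 and 10.9 CPM in shSHCBP1_1 and at 11.5, 10.7 and 11.1 CPM in shSHCBP1_2. In set 4 it was 4.05, 6.30 and 5.95 CPM and in set 2 it was 4.94, 7.89 and 6.03 CPM. The shTMEM45A libraries lay below all others and overlapped each other. Its log2 change was 0.09 (95% interval -0.19 to 0.37, edgeR adjusted p = 0.657) for shSHCBP1 and -0.81 (SE 0.14, adjusted p = 6.94e-06) for shTMEM45A.

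The sets of a target were then compared one by one. Against NC, 5 of the 10 genes passed in shSHCBP1_1 (4 higher, 1 lower), where 19.9% of all genes passed, 9.34% higher and 10.5% lower. In shSHCBP1_2, 7 genes passed (6 higher, 1 lower), where 31.1% of all genes did, 15.6% higher and 15.4% lower. NFKB1, RELA, RELB and TNFAIP3 were higher in both sets, as were 8.30% of all genes, and REL was lower in both, as were 9.45%. Between 3 and 6 genes passed in shSHCBP1_1 when 1 library was left out, as did 13.5% to 14.2% of all genes. There RELA (log2 0.19, edgeR adjusted p = 0.0313) did not pass without NC replicate 1 (0.15), NC replicate 2 (0.17) or shSHCBP1_1 replicate 2 (0.16) or 3 (0.18), nor under RLE (0.12), DESeq2 (0.12) or with the length trend removed (0.10). REL (-0.52, edgeR adjusted p = 0.0121) did not pass without NC replicate 2 (-0.49) or shSHCBP1_1 replicate 2 (-0.44), nor under total-count scaling (-0.37). TNFAIP3 (0.53, edgeR adjusted p = 0.0115) did not pass without NC replicate 1 (0.42) or shSHCBP1_1 replicate 1 (0.46) or 3 (0.47). NFKBIE (0.45, edgeR adjusted p = 0.0529) lay near the threshold and passed in 10 of 19 alternatives, with log2 changes from 0.28 without NC replicate 2 to 0.64 without NC replicate 3. NFKBIB (0.15, edgeR adjusted p = 0.105) passed without NC replicate 1 (0.22) and under total-count scaling (0.29). It also passed with only the groups compared (0.16) and within the table that holds NC alone (0.15).

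Between shSHCBP1_2 and shSHCBP1_1, 0 of the 10 genes passed edgeR's adjusted test, where 0.835% of all genes did. At an unadjusted p under 0.05 the count was 5, against 10.8% of all genes. DESeq2 gave an adjusted p to only 8 of the 10 genes and called 0 of them, where 4.07% of its tested genes passed. The largest differences were -0.34 for REL (log2, edgeR adjusted p = 0.413) and 0.32 for NFKBIE (95% interval 0.00 to 0.63, adjusted p = 0.454). A fit with these 2 groups alone called NFKB2, RELA and NFKBIB higher in shSHCBP1_2 (edgeR adjusted p = 0.0341, 0.0351 and 0.0218), with log2 differences of 0.14, 0.14 and 0.17; 9.53% of all genes passed in that fit. Intervals as wide as that of NFKBIE do not show the 2 sets to be alike.

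In the shTMEM45A libraries all 10 genes passed in set 4 (8 higher, 2 lower), where 74.4% of all genes did, 35.6% higher and 38.9% lower. In set 2, 9 genes passed (7 higher, 2 lower), where 75.9% of all genes did, 36.1% higher and 39.8% lower. NFKB2, the gene that did not pass in set 2, was lower there under total-count scaling (-0.19, edgeR adjusted p = 0.00865) and higher with the length trend removed (0.23, adjusted p = 0.00278). NFKB1, RELA, RELB, NFKBIA, NFKBIB, NFKBIE and TNFAIP3 were higher in both sets, as were 32.6% of all genes, and REL and IRAK2 were lower in both, as were 36.2%. Between the sets, NFKB1 was higher in set 2 (log2 0.40, SE 0.12, edgeR adjusted p = 0.0364) and NFKBIA lower (-0.26, SE 0.07, adjusted p = 0.0254), where 5.27% of all genes passed, 1.95% higher and 3.32% lower. NFKB1 did not pass without set 2 replicate 3 (0.33, edgeR adjusted p = 0.12). Without any 1 column of set 4 neither gene passed, although the differences stayed about as large, at 0.38 to 0.43 for NFKB1 (edgeR adjusted p from 0.0636 to 0.0998) and -0.27 to -0.25 for NFKBIA (adjusted p from 0.0512 to 0.0691). Conversely, NFKB2 passed without set 2 replicate 1 (-0.24, edgeR adjusted p = 0.0387) or column 3 of set 4 (-0.25, adjusted p = 0.0457), and TNFAIP3 without set 2 replicate 2 (-0.51, adjusted p = 0.0437).

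Set directly against each other, the mean of the shTMEM45A sets and the mean of the libraries labelled shSHCBP1 differed in 8 of the 10 genes, 5 higher and 3 lower with shTMEM45A. Over all genes 79.3% passed, 35.2% higher and 44.1% lower, and the median log2 difference of all genes was -0.12. Under total-count scaling this median was -0.47, and 29.7% of the calls were higher against 44.3%. The widest gaps were in REL (-2.37, SE 0.14, edgeR adjusted p = 4.88e-16), NFKBIA (2.17, SE 0.06, adjusted p = 3.66e-25) and NFKBIE (1.37, SE 0.10, adjusted p = 1.93e-13). IRAK2 was lower with shTMEM45A by 0.90 on the log2 scale (SE 0.12, edgeR adjusted p = 4.13e-08), NFKBIB higher by 0.80 and RELB by 0.79. NFKB1 stood lower with shTMEM45A (-0.33, SE 0.08, edgeR adjusted p = 0.000391), but the difference was 0.02 (adjusted p = 0.789) once a trend with transcript length was removed. RELA stood higher by 0.15 (SE 0.04, edgeR adjusted p = 0.00176), and lower by 0.19 under total-count scaling. TNFAIP3 did not pass (0.04, 95% interval -0.17 to 0.25, edgeR adjusted p = 0.726). It passed with a difference of -0.31 under total-count scaling (adjusted p = 0.00751) and of 0.44 with the length trend removed. NFKB2 did not pass either (0.08, edgeR adjusted p = 0.101), but was higher with shTMEM45A under RLE (0.13), upper-quartile scaling (0.14) and DESeq2 (0.13), with only the groups compared (0.14) and with the length trend removed (0.39, adjusted p = 2.8e-09). It was lower under total-count scaling (-0.26, edgeR adjusted p = 6.32e-06).

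Ratios of counts within a library need no library scaling, and each is read here only against the same ratio in NC. They were not corrected for transcript length, which differs within the pairs and went with the shTMEM45A changes, as described below. RELB counts per RELA count were 0.108 ± 0.0187 in NC (SD, n = 3) and rose in mean to 1.64 times that in shSHCBP1_1, 1.76 times in shSHCBP1_2, 2.64 times in set 4 and 2.62 times in set 2. REL per RELA went from 0.214 ± 0.0197 in NC to 0.613 and 0.440 times that in the libraries labelled shSHCBP1, and to 0.0771 and 0.103 times in sets 4 and 2. The groups did not overlap with NC in either ratio. NFKB2 per NFKB1 was 8.95 ± 1.18 in NC and 5.13 and 5.07 in shSHCBP1_1 and shSHCBP1_2, with set 4 at 8.33 and set 2 at 5.54.

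Among ratios of the inhibitors, NFKBIA per RELA and TNFAIP3 per NFKBIA separated the shTMEM45A libraries from all others. There the target cannot be told apart from the table. NFKBIA per RELA was 0.229 ± 0.00550 in NC, 0.868 and 0.747 times that in shSHCBP1_1 and shSHCBP1_2, and 3.57 and 2.98 times in sets 4 and 2. TNFAIP3 per NFKBIA, a ratio of the 2 feedback genes, was 1.46 and 1.81 times the NC mean in the libraries labelled shSHCBP1 and 0.394 and 0.349 times in sets 4 and 2. NFKBIE per NFKBIA was 1.40 and 1.83 times the NC mean with shSHCBP1, and 0.798 and 1.05 times with sets 4 and 2, where it overlapped NC. These ratios show unequal change of the genes in a pair and not which of them changed. With a trend with transcript length removed, the shTMEM45A log2 change was 1.01 for TNFAIP3 and 1.63 for NFKBIA, against 0.69 and 2.12 without removal.

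**Figure D3:**
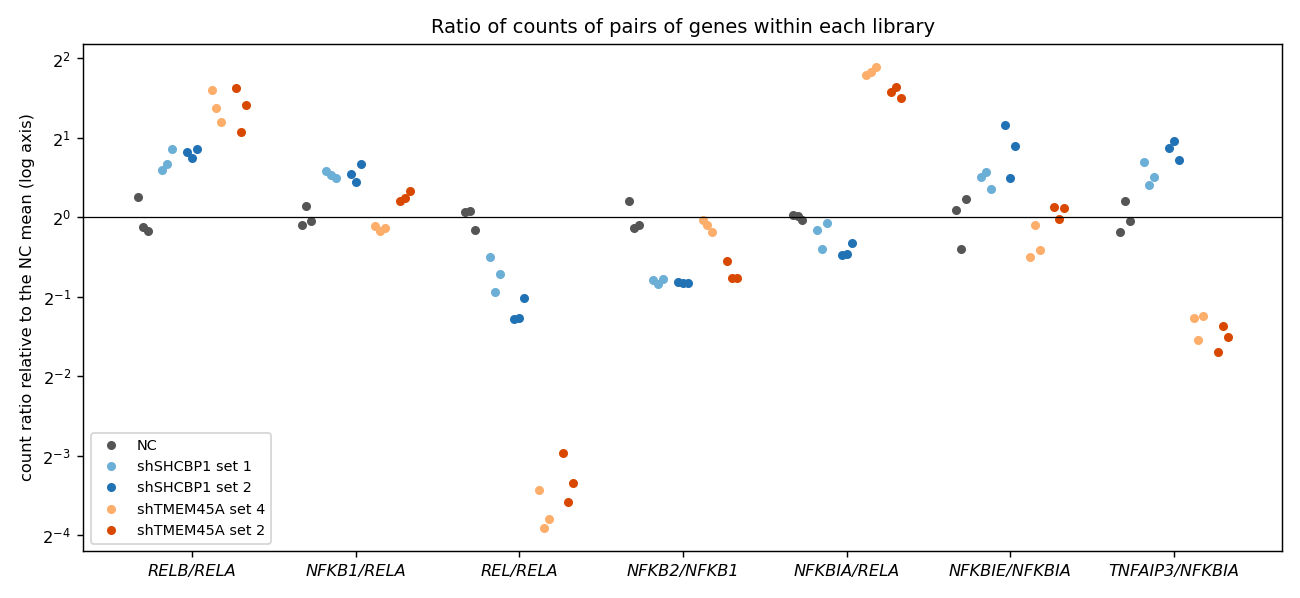
Ratio of the counts of 2 genes within each library, divided by the mean ratio of the NC libraries (vertical axis, log scale); points are libraries, coloured by group. RELB per RELA lies above NC and REL per RELA below it in every hairpin group, while TNFAIP3 per NFKBIA lies above NC with shSHCBP1 and below it with shTMEM45A.

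Transcript length went with the shTMEM45A changes. Over 12716 genes with a length, taken from the longest protein-coding mouse transcript of the same name, the median log2 change with shTMEM45A was 0.84 in the shortest of 5 equal length classes (median 1330.5 nucleotides) and -0.65 in the longest (median 6807 nucleotides). For shSHCBP1 the medians of the 5 classes ran only from -0.02 to 0.04. Among the 10 genes REL, which fell, had the longest transcript at 7466 nucleotides, and NFKBIA, which rose, the shortest at 1578. The next longest were TNFAIP3 (4422 nucleotides) and NFKB1 (4117 nucleotides), which rose, while IRAK2 (3196 nucleotides) fell. With the length trend removed, the shTMEM45A change was -2.38 for REL, 1.63 for NFKBIA, 1.87 for NFKBIE, 1.63 for RELB and 0.80 for NFKBIB, 1.01 for TNFAIP3 and -0.74 for IRAK2. NFKB1 and RELA stood at 0.75 and 0.38, and NFKB2 passed as higher (0.31, edgeR adjusted p = 1.35e-05). For shSHCBP1 the same 7 genes passed, with the smallest changes at 0.16 for RELA (edgeR adjusted p = 0.0129) and 0.15 for NFKBIB (adjusted p = 0.0298).

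**Figure D4:**
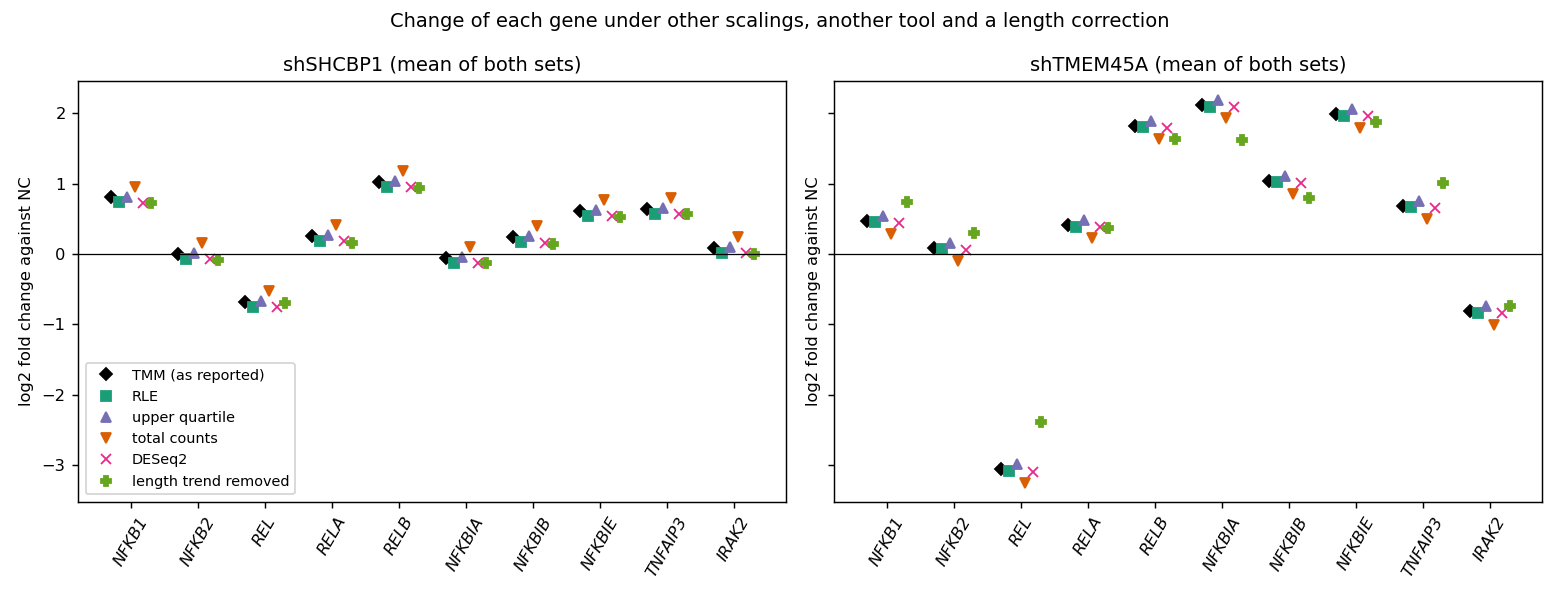
The log2 fold change of each gene against NC (vertical axis) for the mean of both shSHCBP1 sets (left) and of both shTMEM45A sets (right) under 4 library scalings, another tool and a length correction. REL stays below 0 and RELB, NFKBIE, NFKBIB, NFKB1, RELA and TNFAIP3 above 0 in both panels, while NFKB2 and, for shSHCBP1, NFKBIA and IRAK2 lie on both sides of 0.

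Markers of other cells moved in part with these genes. The summed level of 15 leukocyte markers ran from 10.8 to 11.9 CPM in NC, from 11.6 to 16.5 CPM in the libraries labelled shSHCBP1 and from 13.9 to 23.8 CPM in the shTMEM45A libraries. The pan-leukocyte gene PTPRC and the B cell gene MS4A1 had 0 counts in all 15 libraries, and 7 of the 15 markers had enough counts to be tested. The 23 epithelial and basal markers summed to 272.0 to 275.8 CPM in NC and 424.9 to 472.5 CPM with shTMEM45A, and 10 embryonic kidney and neurofilament genes to 581.1 to 597.1 CPM and 299.2 to 357.0 CPM. The 9 fibroblast markers summed to 47.6 to 50.5 CPM in NC and 30.4 to 36.2 CPM with shTMEM45A, and the 6 endothelial markers to at most 2.77 CPM anywhere. Single genes set much of these sums. COL1A1 made up nearly all of the fibroblast sum, with means of 47.3 CPM in NC, 30.5 in set 4 and 30.2 in set 2. Among the epithelial markers KRT8 and KRT18 stood higher with shTMEM45A (168.0 and 144.1 CPM in set 4 against 79.3 and 44.6 in NC), whereas EGFR stood at 16.3 CPM in NC and 8.25 in set 4, CDH1 at 12 and 7.91, and FOXC1 at 93.7 and 87.7. HOXA9, of the kidney list, stood at 30.7 CPM in NC and 56.9 in set 4, against the direction of its sum. Their part in the results for the 10 genes was not tested.

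The rest of the pathway was described from 148 further genes in 5 role lists, of which 122 were tested. With shSHCBP1 (mean of both sets) 21 rose, 14 fell and 87 did not pass; with shTMEM45A 47 rose, 45 fell and 30 did not pass. Over all genes 31.1% and 78.6% were called. These comparisons share the NC libraries.

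Of 27 ligands and receptors, 15 had enough counts to be tested. With shSHCBP1, 2 rose and 0 fell by edgeR's adjusted test (1 fell at an unadjusted p under 0.05, as did 20.5% of all genes, and DESeq2 called 2 lower). The 2 that rose were TNF, the best known activator of the pathway, and its second receptor TNFRSF1B, both named after their values were seen. TNF had 3 counts over the NC libraries, 13 in shSHCBP1_1 and 34 in shSHCBP1_2, ratios of 3.77 (95% counting interval 1.04 to 20.6) and 10.4 (3.27 to 52.9). TNFRSF1B went from 11 counts to 38 and 49. In the mean of both sets 0 of the list passed without NC replicate 1 and 1 without NC replicate 2. Of all genes 22.8% and 23.5% passed in these runs. With shTMEM45A, 6 rose and 4 fell. TNF had 26 counts in set 4 and 49 in set 2, ratios to NC of 9.05 (2.77 to 46.7) and 16.9 (5.45 to 84.7). TNFRSF1B rose by 2.10 (log2, SE 0.51) and the lymphotoxin gene LTA by 1.61 (SE 0.50), which did not pass with the length trend removed (0.998, edgeR adjusted p = 0.0677). The receptors TNFRSF11A, FAS and TNFRSF10B were lower, with log2 changes of -1.01 (SE 0.11), -1.01 (SE 0.15) and -0.76 (SE 0.06). The list's median log2 changes were 0.17 with shSHCBP1 and 0.19 with shTMEM45A.

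Of 32 adaptors and kinases upstream of the IkB proteins, all tested, 7 rose and 1 fell with shSHCBP1 (median 0.06). Within the table that holds NC alone 12 rose and 6 fell, where 45.8% of all genes passed. Under total-count scaling 15 rose and 1 fell, where 36.6% of all genes passed and 83.0% of those calls were higher. The Toll-like receptor adaptor MYD88 rose by 0.92 (log2, SE 0.29, edgeR adjusted p = 0.0161), but did not pass without NC replicate 3 (0.84, adjusted p = 0.0763) or shSHCBP1_2 replicate 3 (0.80, adjusted p = 0.0504). TAB2, which docks the kinase MAP3K7 to ubiquitin chains, rose by 0.78 (SE 0.07) from 37.0 ± 3.24 CPM in NC, and BTRC, the part of the ligase that recognises phosphorylated IkB, rose by 0.54 (SE 0.09). The antiviral adaptor MAVS fell by 0.46 (SE 0.07). With shTMEM45A 12 rose and 14 fell (median -0.01). The RNA sensors IFIH1 and DDX58 rose by 5.44 (SE 0.49; 5 counts over NC, 200 and 251 in sets 4 and 2) and 2.13 (SE 0.19), and the kinase RIPK1 by 1.37 (SE 0.18). TRAF6, MAP3K3 and TRAF5, which relay receptor signals, fell by 1.50 (SE 0.12), 1.32 (SE 0.08) and 1.27 (SE 0.09). The 3 subunits of the IkB kinase, chosen after their values were seen, were lower as well, with log2 changes of -1.12 (SE 0.19) for IKBKG, -0.62 (SE 0.07) for IKBKB and -0.26 (SE 0.06) for CHUK. Of all genes 41.3% passed as lower with shTMEM45A, and no value with the length trend removed was taken for these 3 genes.

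Of 21 tested ubiquitin ligases, deubiquitinases and their partners, 5 rose and 4 fell with shSHCBP1 (median 0.04). Without NC replicate 3, 3 rose and 2 fell, where 23.2% of all genes passed. TNIP2, a TNFAIP3-binding protein, rose by 0.36 (log2, SE 0.07) and N4BP1 by 0.36 (SE 0.08), while the deubiquitinase USP21 fell by 0.38 (SE 0.06). TNIP1 and RBCK1 fell by 0.23 (SE 0.05) and 0.18 (SE 0.05), and neither passed under total-count scaling (-0.07 and -0.02). RBCK1 also did not pass without NC replicate 2 (-0.16, edgeR adjusted p = 0.0574) or 3 (-0.16, adjusted p = 0.0578). With shTMEM45A 5 rose and 8 fell (median -0.08). RNF31, the catalytic subunit of the linear ubiquitin ligase, averaged 27.8 ± 1.51 CPM in NC and fell to 2.77 ± 0.989 CPM in set 4 and 1.93 ± 1.42 CPM in set 2 (log2 -3.59, SE 0.16). Its partner SHARPIN rose by 0.99 (SE 0.07). UBE2V1, a cofactor in building the chains that activate MAP3K7, fell by 2.88 (SE 0.19) and USP21 by 2.13 (SE 0.07), while SPATA2 and TNIP2 rose by 1.06 (SE 0.09) and 0.99 (SE 0.07).

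Of 17 other IkB proteins and nuclear modulators, all tested, 2 rose and 4 fell with shSHCBP1 (median -0.11). The methyltransferase SETD7 rose by 0.39 (log2, SE 0.07), and HDAC3 and KAT2A, which remove and add acetyl groups, fell by 0.27 each (SE 0.05), neither passing under total-count scaling (-0.11 each). With shTMEM45A 7 rose and 10 fell (median -0.28). COMMD1 and PDLIM2, both known to promote removal of RELA, rose by 1.75 (SE 0.12) and 1.36 (SE 0.14), and the IkB-like gene NFKBIL1 rose by 1.46 (SE 0.07). The coactivator EP300 fell by 1.78 (SE 0.08) and NFKBID by 1.06 (SE 0.13). CREBBP fell by 0.77 (SE 0.06), but stood at 0.13 with the length trend removed.

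Target genes outside the 10 divided in both comparisons. With shSHCBP1 5 of 37 tested rose and 5 fell (median 0.13). Leaving out NC replicate 1 gave 2 rises and 3 falls, and leaving out NC replicate 2 gave 3 of each. Of all genes 22.8% and 23.5% passed in these runs. JUNB rose by 0.47 (log2, SE 0.06), and ATF3 and SAT1 fell by 0.59 (SE 0.03) and 0.50 (SE 0.04). With shTMEM45A 17 rose and 9 fell (median 0.32). The chemokine gene CCL5 had 3 counts over the NC libraries and 3711 and 3361 in sets 4 and 2, ratios of 1292 (95% counting interval 441.8 to 6268) and 1159 (396.2 to 5622), against 9 and 4 counts in the libraries labelled shSHCBP1. CXCL10 had 0 counts in NC and 193 and 178 in sets 4 and 2, at least 67.2-fold and 61.4-fold higher than 3 counts over the group. CXCL8 had 0 in NC and 29 and 35, group totals at least 10.1-fold and 12.1-fold higher. Its libraries in set 4 ran from 0.073 to 1.07 CPM, so the bound is for the total and not for each library. The libraries labelled shSHCBP1 had 5 and 8 counts of CXCL8. TRAF1, KLF6 and NAMPT fell by 1.81 (SE 0.13), 1.32 (SE 0.05) and 1.2 (SE 0.06). The cytokine gene IL6 had 3 to 8 counts in every group and was not tested, and CXCL5 had none.

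**Figure D5:**
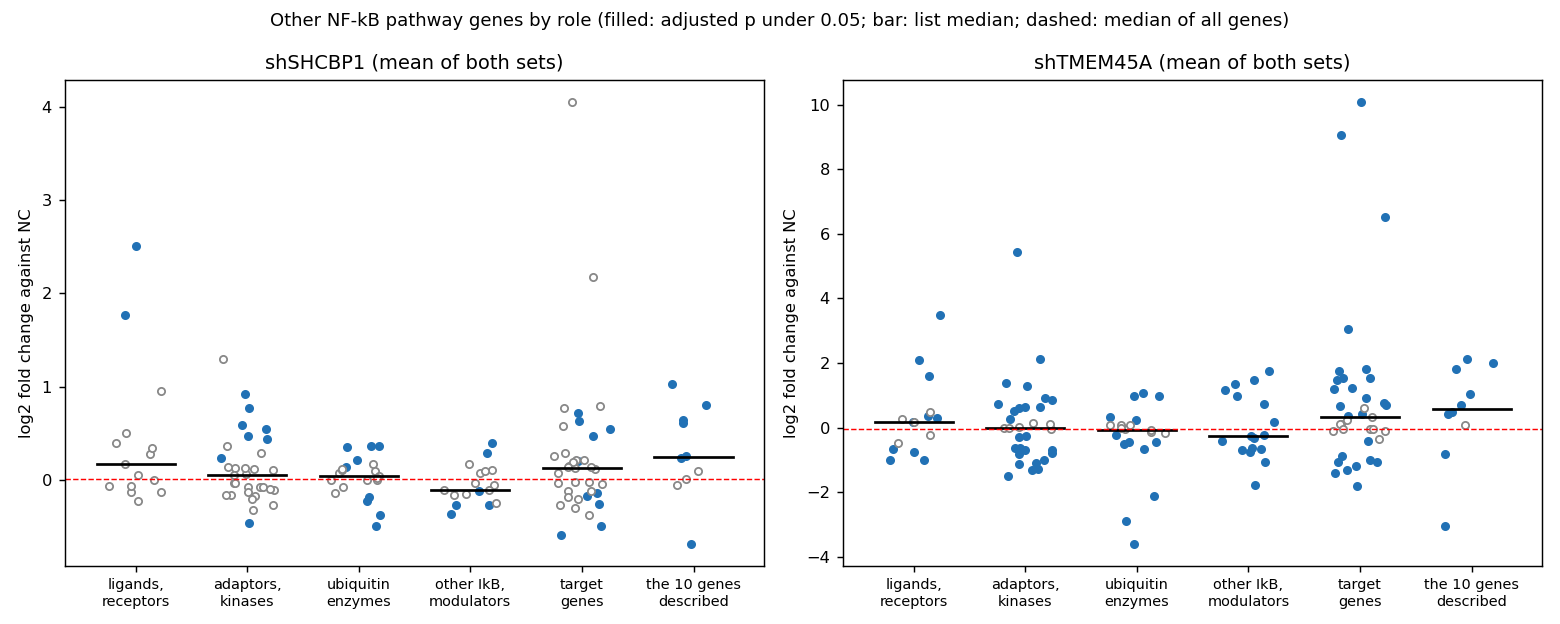
The log2 fold change against NC (vertical axes, different scales) of the tested pathway genes by role, for the mean of both shSHCBP1 sets (left) and of both shTMEM45A sets (right); filled points had an adjusted p under 0.05, bars are list medians and the dashed line is the median of all genes. Genes that rose and fell stand side by side in most lists, and the highest points in the right panel are CCL5, CXCL10 and CXCL8, whose fitted values depend on the prior count because NC had 3, 0 and 0 counts.

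Likeness of pattern was described over the 9 libraries of the table that holds NC, by Pearson correlation of log2 CPM among 12082 genes, for the 5 members that passed in both shSHCBP1 sets. These libraries share 3 groups, so any genes that differ between the groups correlate. NFKB1 was most like NHLH2, TST and LSG1 (r = 0.997, 0.996 and 0.992), REL like OXA1L, CREG1 and PRDX6 (0.99, 0.99 and 0.98), RELA like HEATR5A, WBP1L and MOB2 (0.99, 0.99 and 0.98), RELB like PQLC2, MSANTD4 and ADO (0.99 each), and TNFAIP3 like SGO1, PARPBP and GGPS1 (0.98 each). Among the 10 genes, NFKB1 and RELB were closest to each other (r = 0.92), and REL was least like RELA (r = -0.95).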

How the data were processed

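The 10 genes and all gene lists were chosen with earlier results of these data known. The authors deposited 2 tables of raw counts per gene symbol, whole numbers with no normalization, 58735 rows each. Per the labels' protocols, polyadenylated RNA was copied with random primers in a kit that does not mark strand, so overlapping genes cannot be told apart. Which aligner and counter were used is not given in the sources used here. Per the submitters' processing notes the build is mm10, and the labels give the mouse, but the tables carry human symbols and were treated as human. The 200 names on more than 1 row or read as dates (1768 rows, SOD2 among them) were left out.

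Genes passing filterByExpr (count minimum 10, total minimum 15) entered 1 fit of group means over 15 libraries with TMM scaling in edgeR 4.0.16 (R 4.3.3), tested by quasi-likelihood F tests, with p-values adjusted by Benjamini and Hochberg's method over 19051 genes and a threshold of 0.05. Dividing the absolute log2 change by the square root of F gave the SE, and 95% intervals use its t quantile. Counting intervals are exact and cover counting error only. A gene at 0 was set to 3 counts over its group for a bound, and 3 counts in 1 library correspond to 0.165 to 0.229 CPM. The edgeR test was tried on counts simulated from its own model, with changes set only in shSHCBP1_1 against NC. The simulation had no length trend, so it does not bear on the shTMEM45A comparisons.

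The naming rule took all 10 genes, both targets, up to 3 rises and 3 falls per list (genes that passed in each set of a target, in 1 direction), and the 3 genes most like a member. Likeness used log2 CPM with a prior count of 2 and a mean of at least 2. Alternatives were RLE, upper-quartile and total-count scaling, no filter, a filter of 1 CPM in 3 libraries, DESeq2 1.42.0, only the groups compared, summed repeated names, a replicate block, a length correction (loess span 0.5) and leaving out each library. No sequences were used here, because the reference at hand was that of the mouse.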

Additional observations from a re-analysis of the deposited data

Results flagged for a closer look

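For 2 of the 10 genes the shTMEM45A libraries and those labelled shSHCBP1 differed in a direct test, with log2 changes against NC of opposite sign. In both genes shTMEM45A passed against NC, while the shSHCBP1 change was small and did not pass. Of all genes 79.3% passed the direct test, 78.6% passed against NC for shTMEM45A and 31.1% for shSHCBP1. The share of all genes with this joint pattern was not counted, so the 2 genes are not shown to stand out. SHCBP1 itself did not pass as lower in the libraries that carry its name, so the difference is between labelled libraries. NFKBIA differed by 2.17 on the log2 scale between shTMEM45A and shSHCBP1 (SE 0.06, edgeR adjusted p = 3.66e-25), with 2.12 against NC for shTMEM45A and -0.05 (adjusted p = 0.645) for shSHCBP1. IRAK2 differed by -0.90 (SE 0.12, edgeR adjusted p = 4.13e-08), with -0.81 for shTMEM45A and 0.09 (adjusted p = 0.657) for shSHCBP1. All 6 shTMEM45A libraries lay above the other 9 for NFKBIA and below them for IRAK2. Against NC alone, the shTMEM45A libraries did not overlap in 67.8% of all genes. The 2 targets lie in separate tables, so the target cannot be told apart from the table. Outliers were not tested, since each group had 3 libraries.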

How the results depend on the processing

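The calls on the mean of both shSHCBP1 sets (7 genes) and of both shTMEM45A sets (9 genes) held under every alternative run, including each left-out library, and NFKB2 was added in some. Leaving out 1 library gave 7 to 7 and 9 to 10 genes for these means, 3 to 6 for shSHCBP1_1, 7 to 7 for shSHCBP1_2, 8 to 10 for set 4, 8 to 9 for set 2, 0 to 0 between shSHCBP1 sets, 0 to 3 between shTMEM45A sets and 8 to 9 between targets. The shares of all genes that passed in these runs were 22.8% to 27.3% and 73.4% to 78.4% for the means. They were 13.5% to 14.2% for shSHCBP1_1, 23.4% to 24.9% for shSHCBP1_2, 69.2% to 71.1% for set 4 and 71.3% to 74.2% for set 2. Between shSHCBP1 sets they were 0.138% to 0.275%, between shTMEM45A sets 3.6% to 6.66% and between targets 76.6% to 78.9%. With only the groups compared, 3 genes passed between the shSHCBP1 sets and 0 between the shTMEM45A sets, where 9.53% and 0.772% of all genes passed. The ligand and receptor list under shSHCBP1 gave 4 calls with RLE or DESeq2, 5 with the length trend removed and 1 with the stricter filter. Of all genes tested, 34.0% passed with RLE, 30.2% with DESeq2, 42.8% with the length trend removed and 33.7% with the stricter filter.

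The log2 changes below turned in sign, and their cause was not tested. With RLE scaling NFKB2 was -0.0017 in shSHCBP1_2 and -0.065 in the mean, and SHCBP1 -0.071 and -0.020. DESeq2 gave -0.0043 and -0.068 for NFKB2, -0.074 and -0.023 for SHCBP1, and 0.0013 for RELB between the shTMEM45A sets. Upper-quartile scaling gave 0.0066 for NFKBIA in shSHCBP1_1, 0.071 for NFKB2 in set 2 and 0.0065 for RELB between the shTMEM45A sets. Total-count scaling gave NFKB2 0.080 in shSHCBP1_1, -0.0057 in set 4, -0.10 in the shTMEM45A mean and -0.26 between targets. It gave NFKBIA 0.13, 0.075 and 0.10 in shSHCBP1_1, shSHCBP1_2 and their mean, and between targets RELA -0.19 and TNFAIP3 -0.31. Without a filter RELA was -0.015 between the shTMEM45A sets. NFKB2 in set 2 was 0.0073 with the stricter filter and 0.0075 with only the groups compared. With the length trend removed IRAK2 was -0.012 in shSHCBP1_1 and -0.0045 in the mean, NFKB2 -0.029 in shSHCBP1_2, -0.084 in the mean and 0.23 in set 2, and SHCBP1 -0.092 and -0.040. It also gave CREBBP 0.13 with shTMEM45A, RELB 0.0063 between its sets and NFKB1 0.024 between targets.

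Leaving out 1 library turned NFKBIA in shSHCBP1_1 (-0.096 to 0.046), SHCBP1 in shSHCBP1_2 (-0.032 to 0.042), NFKB2 in the shSHCBP1 mean (-0.010 to 0.025) and in set 2 (-0.060 to 0.070), and NFKBIA between shSHCBP1 sets (-0.14 to 0.0058). It also turned TNFAIP3 between targets (-0.027 to 0.080), and RELA (-0.034 to 0.041) and RELB (-0.15 to 0.15) between shTMEM45A sets.

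A replicate block in the 12 libraries with a labelled number gave NFKB2 0.014 in set 2 (0.015 without it) and added NFKBIE in shSHCBP1_1 (edgeR adjusted p = 0.0199), which also passed without the block in those libraries (0.0422). No pairing by number was seen, with 0 of 18 same-number pairs correlating over 0.1 and 6 of 12 libraries most like their own number. With 3 libraries a group this check cannot exclude a pairing. No paired analysis was possible for set 4, because its columns carry no labelled number.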
